A study of Mus musculus with 16 samples.

Results

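The ADAMTS, MMP and TIMP genes code for secreted and membrane proteases of the extracellular matrix and for their inhibitors. Members were taken by gene name (Adamts, Adamtsl and Mmp followed by a number, and Timp1 to Timp4), which found 48 genes among the 41204 of the deposited count table. Of these, 39 were expressed, meaning a mean of at least 1 CPM, a count scaled to the size of its library, in at least 1 tendon. They were compared across the Achilles tendon of the calf, the flexor tendon of the forepaw (Flexor), the patellar tendon of the knee (Patellar) and the supraspinatus tendon of the shoulder (Supraspinatus). All 16 libraries, 4 for each tendon and numbered 1 to 4, came from the inbred strain C57BL/6J, and p-values measure the spread between these libraries. The sources used here do not give age, sex, any treatment, whether animals were pooled or whether a library's number stands for an animal.

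Matrix metalloproteinases (MMPs) are zinc enzymes that are made as inactive proenzymes and cleave collagens, proteoglycans and other matrix proteins. ADAMTS proteases carry thrombospondin repeats, and different members cleave proteoglycans, trim procollagens or act on fibrillin microfibrils, while the ADAMTS-like (ADAMTSL) proteins lack the protease domain. TIMPs bind the active site of MMPs and block them, and Timp3 also inhibits some ADAMTS proteases. In tendon these families take part in procollagen trimming, proteoglycan turnover and the repair of damaged matrix, and a transcript level does not measure how much active enzyme is present.

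The Patellar libraries stood apart in depth and makeup. They held 34559686 to 63235636 counts, against 84414005 to 107805065 in the other 12, and 7 genes of rRNA-like sequence took 13.2% to 42% of their counts, against 1.86% to 4.91% elsewhere. All 10 tendon markers checked, among them Scx, Tnmd and Col1a1, had a mean of at least 1 CPM in every tendon. They took 2.77% ± 1.19 (SD, n = 4) of the counts in Achilles and 2.29% ± 0.174 in Flexor. The share was 1.83% ± 1.04 in Supraspinatus, where replicate 4 was at 3.28%, and 4.57% ± 1.62 in Patellar. The mean share thus also varied with tendon, and its part in the levels of the members was not tested. These shares, and those of the gene lists below, are of all counts, rRNA-like genes included. A list of 20 skeletal muscle genes took 6.07% ± 1.86 (SD, n = 4) of the counts in Achilles, 8% ± 1.16 in Flexor, 13% ± 0.434 in Supraspinatus and 0.313% ± 0.362 in Patellar, so the contrasts with Patellar also compare libraries with little and with much muscle RNA. In such bulk samples fewer cells of a type and less RNA per cell cannot be told apart.

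Set side by side per kilobase of exon, Timp2, Timp3 and Mmp2 were among the 4 most abundant members in every tendon. Timp2 was the most abundant member in Patellar, at 306 ± 91.7 CPM per kb (SD, n = 4), and in Supraspinatus, at 217 ± 55.7. It took 46.9% of the summed level of the 39 members in Patellar and 13.6% in Flexor. Timp3 and Timp2 led in Achilles, at 110.4 ± 28.5 and 99.6 ± 31.4 CPM per kb, which differ by less than their spread. Mmp2 led in Flexor, at 102 ± 21.1 CPM per kb against 77.3 ± 13.1 for Timp3.

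The 9 members below the threshold were Adamts13, Adamts19, Mmp8, Mmp10, Mmp13, Mmp20, Mmp21, Mmp24 and Mmp25, with means from 0 to 0.855 CPM. Both collagenases of the table, Mmp8 and Mmp13, were among them: the highest mean of Mmp13 was 0.654 CPM, in Patellar, and that of Mmp8 was 0.231 CPM, in Flexor. The members nearest the threshold were Mmp13 and Mmp24 below it and Adamts18 (1.1 CPM in Patellar) and Adamts16 (1.12 CPM in Achilles) above it. Of all 48 members, 46 passed the filter on low counts, and Mmp10 and Mmp20 did not.

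Over all 4 tendons, 27 of the 39 expressed members differed (edgeR quasi-likelihood test with Benjamini-Hochberg adjustment over 23754 genes, adjusted p under 0.05). The same test called 64.9% of all genes tested and 75.7% of those with at least 1 CPM in a tendon, so the families' share lay near the background. The highest mean lay in Patellar for 21 of the 39 members, in Achilles for 9, in Flexor for 5 and in Supraspinatus for 4 (of all genes with at least 1 CPM, 32.7%, 13.9%, 22.3% and 31.1%), and 17 members had their lowest mean in Supraspinatus, as 29.2% of those genes did.

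In the contrasts of Patellar with Flexor and with Supraspinatus, most of the called members were higher in Patellar. In Patellar minus Flexor, 18 of 39 were higher and 5 lower, where 24.2% and 26.2% of all tested genes were (27.5% and 31.2% of those with at least 1 CPM). In Supraspinatus minus Patellar, 7 were higher and 16 lower, against 26.4% and 26.8% of all genes (32.5% and 28.6%). Patellar minus Achilles gave 9 higher and 5 lower, against 17.4% and 21.1% (20.6% and 25.3%). Supraspinatus minus Achilles gave 4 and 11, against 16.9% and 16.7% (21.9% and 18.6%). In Flexor minus Achilles 1 was higher and 8 lower, against 6.5% and 9.72% (8.35% and 12.3%), and in Supraspinatus minus Flexor 7 and 6, against 14.7% and 12.4% (19.6% and 14.8%). The members' median log2 fold change was 0.91 in Patellar minus Flexor and -0.67 in Supraspinatus minus Patellar, and the medians of all genes with at least 1 CPM were -0.05 and 0.04. Contrasts that share a tendon share its libraries, and since a member could reach 1 CPM through its highest tendon alone, these counts and medians only describe the 39. In Flexor minus Achilles, 13 members were lower with the 8 libraries of the pair alone and 4 without Flexor replicate 2, 3 or 4, and 0 were higher without Achilles replicate 1, 2 or 4 and 2 without Patellar replicate 3. In Patellar minus Achilles, 8 were lower without Patellar replicate 2.

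With the mean level of the muscle genes as a covariate, Patellar minus Flexor kept 3 members higher, Patellar minus Achilles 1 higher and Supraspinatus minus Patellar 5 lower. Tendon accounted for 89% of the variance of that covariate, so muscle content and tendon could be told apart only in part. The share of all genes called with the covariate is not given here. Counts from that fit, here and below, therefore only describe the members. Of the 97 member comparisons called, 89 passed in the same direction under every other setting in which they were tested, leaving out single libraries aside. Members that passed the same way in all 3 contrasts of a tendon are called distinct to it. In Patellar, Adamtsl1, Mmp3, Mmp9, Mmp23, Mmp27 and Mmp28 were distinct and higher (10.5% of all genes were, and 12.2% of those with at least 1 CPM) and Adamts1, Adamts20, Adamtsl5 and Timp3 distinct and lower (14.2% and 17.5%). In Supraspinatus, Adamts20 and Adamtsl3 were distinct and higher (7.06% and 9.72%) and Adamts5, Adamts10, Adamts15, Adamtsl1 and Mmp27 distinct and lower (5.19% and 6.44%). Adamtsl4 was distinct and higher in Flexor (1.7% and 2.19%), Timp2 distinct and lower there (3.44% and 4.77%), and none was distinct to Achilles (1.15% and 1.35% of genes were distinct and higher and 0.581% and 0.803% distinct and lower). With the muscle covariate 0 were distinct and higher in Patellar and 1 in Supraspinatus. Without Supraspinatus replicate 4, 12 were distinct and higher in Patellar and 1 in Supraspinatus, and the latter count was also 1 without Supraspinatus replicate 1 or Achilles replicate 2 or 4. Adamtsl4 lost this standing in Flexor without Achilles replicate 1, 2 or 4, Flexor replicate 4 or Supraspinatus replicate 1, and Timp2 without Achilles replicate 2 or 4 or Flexor replicate 2, 3 or 4. Without Flexor replicate 1 or Supraspinatus replicate 2 or 4, 2 members were distinct and lower in Flexor.

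**Figure D1:**
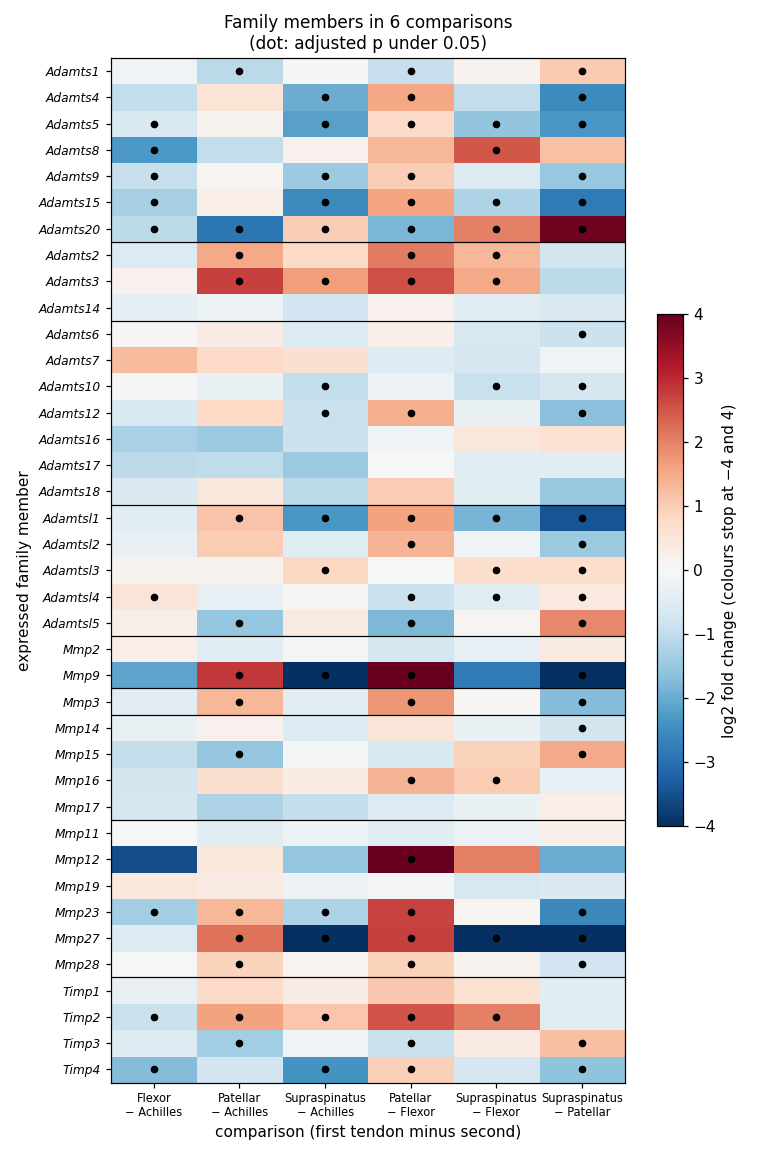
Log2 fold changes (colour, first tendon minus second) of the 39 expressed members, in rows grouped by subfamily, in the 6 comparisons. A dot marks an adjusted p under 0.05: 18 members were higher and 5 lower in Patellar than in Flexor, and 7 higher and 16 lower in Supraspinatus than in Patellar.

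The ADAMTS proteases that cleave aggrecan and versican, the large proteoglycans that bind hyaluronan, all differed between tendons (7 of 7, where 75.7% of genes with at least 1 CPM did). They fell into opposite patterns: Adamts5, Adamts15, Adamts9 and Adamts4 had their lowest means in Supraspinatus, whereas Adamts20 and Adamts8 had their highest there, although for Adamts8 it lay within the spread of Achilles. Adamts1 was lowest in Patellar. Log2 fold changes below are the first tendon minus the second with standard errors, 4 libraries against 4, from edgeR's quasi-likelihood test with Benjamini-Hochberg adjustment. Levels are CPM scaled by the trimmed mean of M-values (TMM), listed for replicates 1 to 4.

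Adamts5, a main aggrecan-cleaving enzyme of cartilage (ENSMUSG00000022894, chromosome 16, 85856173 to 85901828 on GRCm38), was at 79, 111, 63.2 and 104 CPM in Achilles, 57.6, 66.1, 60.8 and 49.9 in Flexor, 19.2, 19, 22.9 and 17.6 in Supraspinatus and 90.2, 105, 71.3 and 127 in Patellar. The Supraspinatus libraries lay below all 12 others. The difference was -2.18 ± 0.19 log2 units (adjusted p = 1.5e-06) against Achilles, and -1.58 ± 0.19 (adjusted p = 1.2e-05) against Flexor. Adamts5 was also lower in Flexor than in Achilles (-0.61 ± 0.19 log2 units, adjusted p = 0.035), where the libraries overlapped and which did not pass without Achilles replicate 2 or 4 or any 1 of the Flexor libraries (adjusted p from 0.053 to 0.091). Its neighbour Adamts1, which cleaves versican and lies 53.1 kb away on chromosome 16, had another order, at 83.7 ± 18.9 CPM in Achilles, 74.3 ± 14.6 in Flexor, 81.6 ± 15.5 in Supraspinatus and 39.5 ± 10.9 in Patellar (mean ± SD, n = 4). Every Patellar library was below every other library for Adamts1, at -1.08 ± 0.22 log2 units (adjusted p = 0.0011) against Achilles, and -1.72 (adjusted p = 0.031) with the mean log2 level of the muscle genes as a covariate.

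Adamts15, which also cleaves versican (ENSMUSG00000033453, chromosome 9, 30899155 to 30922452), was at 26.2, 16.4, 17.3 and 18.5 CPM in Achilles, 8.72, 7.36, 8.23 and 7.13 in Flexor, 3.15, 1.62, 3.15 and 5.33 in Supraspinatus and 15.6, 25.5, 36.5 and 16.2 in Patellar. Supraspinatus lay lowest and Flexor next, with no overlap between them, while Achilles and Patellar overlapped. The difference was -2.56 ± 0.33 log2 units (adjusted p = 2.7e-05) in Supraspinatus minus Achilles and -1.32 ± 0.31 (adjusted p = 0.0087) in Flexor minus Achilles. Supraspinatus minus Patellar was -2.82 ± 0.33 log2 units and became -1.21 (adjusted p = 0.27) with the muscle covariate. Adamts9, a versican-cleaving enzyme with a long tail of thrombospondin repeats, was at 17.9, 11.5, 13.1 and 13.7 CPM in Achilles, 8.28, 6.53, 8.31 and 6.61 in Flexor, 4.98, 5.7, 3.59 and 6.1 in Supraspinatus and 11.9, 21.3, 12.9 and 12.6 in Patellar. It showed the same order of tendons as Adamts15 at its low end, with Supraspinatus below Flexor and Flexor below Achilles and Patellar, and no overlap at each step, although Supraspinatus minus Flexor did not pass (-0.55 ± 0.22 log2 units, adjusted p = 0.073). The difference was -1.46 ± 0.22 log2 units (adjusted p = 0.00012) in Supraspinatus minus Achilles.

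Adamts20, an enzyme of the same versican-cleaving group (ENSMUSG00000022449, chromosome 15, 94270163 to 94465418), ran the other way, at 20.1, 14.1, 26.2 and 17.8 CPM in Achilles, 14.2, 8.39, 6.25 and 9.11 in Flexor, 49.2, 19.8, 37.5 and 47.1 in Supraspinatus and 2.64, 2.92, 3.44 and 1.67 in Patellar. Every Patellar library was below the 12 others, and Supraspinatus lay above Flexor and Patellar without overlap. It was higher in Supraspinatus than in Patellar by 3.85 ± 0.34 log2 units (adjusted p = 2.4e-07) and lower in Patellar than in Achilles, at -2.88 ± 0.33 (adjusted p = 1e-05). The skeletal muscle share of counts was likewise lowest in Patellar and highest in Supraspinatus, and its part in the Adamts20 levels was not tested beyond the covariate. With it Supraspinatus minus Patellar stayed called at 3.85 (adjusted p = 0.016) and Patellar minus Flexor was -1.83 (adjusted p = 0.13). The smaller differences were less firm: Supraspinatus minus Achilles (0.97 ± 0.30 log2 units) did not pass without Achilles replicate 2 or 4 or Supraspinatus replicate 1 or 4 (adjusted p from 0.055 to 0.071), and Flexor minus Achilles (-1.04 ± 0.30) did not pass without Achilles replicate 1 or 3 or Flexor replicate 2, 3 or 4 (adjusted p from 0.056 to 0.091).

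Adamts8 was at 30.5 ± 5.04 CPM in Achilles, 6.16 ± 8.37 in Flexor, 34.7 ± 10.1 in Supraspinatus and 15.5 ± 6.6 in Patellar, and 1 Flexor library (replicate 1, 18.7 CPM) lay far above the other three. It was lower in Flexor than in Achilles (-2.31 ± 0.64 log2 units, adjusted p = 0.021), a call that did not pass without Achilles replicate 1 or Flexor replicate 2, 3 or 4 (adjusted p from 0.051 to 0.064), nor without the filter on low counts (adjusted p = 0.067). Adamts4, the other main aggrecan-cleaving enzyme, was at 3.66 ± 1.32 CPM in Achilles, 1.84 ± 0.784 in Flexor, 0.921 ± 0.447 in Supraspinatus and 5.33 ± 4.48 in Patellar. The strand setting of the counting is not given, so its counts are uncertain. Adamts4 was lower in Supraspinatus than in Achilles (-1.99 ± 0.60 log2 units, adjusted p = 0.019), and this did not pass without Achilles replicate 1 or Supraspinatus replicate 2 or 3 (adjusted p from 0.054 to 0.058).

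Adamts2 and Adamts3, which remove the amino-terminal propeptide of fibrillar procollagens so that fibrils can form, were higher in Patellar than in Achilles and Flexor, and the related Adamts14 did not pass over the 4 tendons (adjusted p = 0.2). Adamts2 (ENSMUSG00000036545, chromosome 11, 50602084 to 50807573) was at 85.3, 116, 42 and 88.1 CPM in Achilles, 62.1, 64.1, 58.5 and 40.1 in Flexor, 98.4, 91.7, 121 and 249 in Supraspinatus and 209, 252, 178 and 303 in Patellar. All Patellar libraries were above all Achilles and Flexor libraries, and the Supraspinatus libraries spread across the Achilles and Patellar ranges. The difference was 1.51 ± 0.33 log2 units (adjusted p = 0.0019) in Patellar minus Achilles and 2.07 ± 0.33 (adjusted p = 9.7e-05) in Patellar minus Flexor, and with the muscle covariate these became 1.23 (adjusted p = 0.24) and 1.75 (adjusted p = 0.12).

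Adamts3 (ENSMUSG00000043635, chromosome 5, 89677087 to 89883334) was at 3.65, 2.89, 1.36 and 4.57 CPM in Achilles, 4.34, 3.74, 3.44 and 2.43 in Flexor, 9.5, 3.12, 8.72 and 18.6 in Supraspinatus and 26.2, 13.2, 16 and 27.8 in Patellar. Patellar was again above Achilles and Flexor without overlap, by 2.74 ± 0.46 log2 units (adjusted p = 0.00028) and 2.57 ± 0.46 (adjusted p = 0.00024). Both calls held with the muscle covariate, at 3.63 (adjusted p = 0.014) and 3.61 (adjusted p = 0.022). Supraspinatus was above Achilles by 1.68 ± 0.45 log2 units (adjusted p = 0.0089), or 1.39 (adjusted p = 0.053) with the covariate, and above Flexor by 1.52 ± 0.45, which did not pass without Flexor replicate 4 or Supraspinatus replicate 4 (adjusted p from 0.056 to 0.086). Adamts14 was at 7.99, 5.66, 6.66 and 7.01 CPM in Achilles, 6.31, 4.19, 4.17 and 6.53 in Flexor, 3.58, 2.32, 2.52 and 7.55 in Supraspinatus and 6.16, 7.92, 4.13 and 5.54 in Patellar, and the tendons overlapped. Among the substrates of Adamts2, the type I procollagen genes Col1a1 and Col1a2 had means of 16111 and 15994 CPM in Patellar, against 5716 and 6664 in Achilles and 4636 and 4563 in Flexor. In Supraspinatus they were at 5046 and 5002 CPM, and the difference from Flexor did not pass (adjusted p = 0.87 and 0.85). Adamts2 was higher in Supraspinatus than in Flexor, by 1.32 ± 0.33 log2 units (adjusted p = 0.0064).

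Of the 7 other expressed ADAMTS genes, Adamts10 and Adamts12 differed over the 4 tendons. Adamts10, a protease tied to fibrillin microfibrils, was at 63, 73.1, 57 and 63.5 CPM in Achilles, 63.3, 54.7, 63 and 62.5 in Flexor, 34.8, 26.7, 29.8 and 38.9 in Supraspinatus and 39.2, 60.3, 54.6 and 53 in Patellar. All Supraspinatus libraries fell below the 12 others, the nearest being a Patellar library at 39.2 CPM, and the difference was -0.98 ± 0.14 log2 units (adjusted p = 8.6e-05) in Supraspinatus minus Achilles. Supraspinatus minus Patellar (-0.67 ± 0.14 log2 units) turned to 0.20 (adjusted p = 0.7) with the muscle covariate. Adamts12, which cleaves cartilage oligomeric matrix protein, was at 19.9, 16.5, 10.9 and 16.8 CPM in Achilles, 10.8, 9.78, 14 and 7.34 in Flexor, 8.12, 7.49, 6.77 and 12.4 in Supraspinatus and 12.8, 39.7, 22.6 and 36.4 in Patellar.

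Patellar had the widest spread for Adamts12 and overlapped Achilles and Flexor. Supraspinatus minus Patellar (-1.68 ± 0.32 log2 units, adjusted p = 0.00035) and Patellar minus Flexor (1.41 ± 0.32) were called, and turned to 0.12 (adjusted p = 0.94) and -0.17 (adjusted p = 0.89) with the muscle covariate. Supraspinatus minus Achilles (-0.88 ± 0.31 log2 units) did not pass without Achilles replicate 1, 2 or 4, Flexor replicate 2 or Supraspinatus replicate 1, 2 or 3 (adjusted p from 0.051 to 0.11), nor without the filter on low counts (adjusted p = 0.055), and was -0.49 (adjusted p = 0.27) with the muscle covariate. Adamts7, which also cleaves cartilage oligomeric matrix protein, was at 5.75, 3.75, 3.32 and 5.17 CPM in Achilles, 11.1, 11.2, 13 and 8.59 in Flexor, 7.13, 2.85, 9 and 8.79 in Supraspinatus and 11.4, 4.47, 1.7 and 12.9 in Patellar. It did not pass over the 4 tendons (adjusted p = 0.13), although each Flexor library was above each Achilles library. Adamts6 was at 15.4, 23, 13 and 13.6 CPM in Achilles, 17.8, 17.3, 18.8 and 15.2 in Flexor, 11, 9.75, 17 and 6.37 in Supraspinatus and 27.5, 15, 12.8 and 24.2 in Patellar, with adjusted p = 0.081 over the 4 tendons. Adamts16, Adamts17 and Adamts18 had means from 0.386 to 1.39 CPM and did not pass.

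All 5 ADAMTS-like genes, whose products bind microfibrils and other matrix without cutting it, differed over the 4 tendons (against 75.7% of genes with at least 1 CPM), and no tendon was highest or lowest for all of them. Adamtsl1 was highest in Patellar and lowest in Supraspinatus, Adamtsl5 was lowest in Patellar, Adamtsl4 was highest in Flexor and Adamtsl3 highest in Supraspinatus. Adamtsl1 (ENSMUSG00000066113, chromosome 4, 85514172 to 86428385) was at 16, 12.6, 14.8 and 19 CPM in Achilles, 12.3, 9.89, 14.1 and 9.25 in Flexor, 2.74, 3.55, 2.19 and 4.07 in Supraspinatus and 23.8, 43, 22.5 and 48.9 in Patellar. Patellar lay above and Supraspinatus below all other libraries. The difference between them was -3.46 ± 0.28 log2 units (adjusted p = 1.2e-07), the largest in size of any ADAMTS-like gene, and Supraspinatus minus Achilles was -2.32 ± 0.27 (adjusted p = 1.2e-05). Patellar minus Achilles, at 1.15 ± 0.26 log2 units, became 0.82 (adjusted p = 0.36) with the muscle covariate.

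Adamtsl5, which codes for a fibrillin-binding protein (ENSMUSG00000043822, chromosome 10, 80339110 to 80348412), was at 74.2, 61.2, 94.5 and 69.5 CPM in Achilles, 77.3, 79.6, 103 and 94.9 in Flexor, 92.5, 80.5, 106 and 106 in Supraspinatus and 28.3, 25.5, 19.9 and 28.7 in Patellar. Every Patellar library was below the 12 others. Patellar minus Achilles was -1.55 ± 0.16 log2 units (adjusted p = 4.5e-06) and Supraspinatus minus Patellar 1.91 ± 0.16 (adjusted p = 1.5e-07). Both stayed called with the muscle covariate, at -1.13 (adjusted p = 0.038) and 1.38 (adjusted p = 0.036). Adamtsl4, a fibrillin partner needed for the fibres that hold the lens, was at 89.4, 82.5, 96.2 and 87.5 CPM in Achilles, 126, 123, 136 and 130.3 in Flexor, 77.2, 96.8, 96.4 and 101 in Supraspinatus and 73.6, 83.2, 76.8 and 49.6 in Patellar. The Flexor libraries were above all others, by 0.53 ± 0.14 log2 units (adjusted p = 0.014) against Achilles. That call did not pass without Achilles replicate 1, 2 or 4 (adjusted p from 0.05 to 0.062), and Supraspinatus minus Flexor (-0.47 ± 0.14 log2 units) did not pass without Flexor replicate 4 or Supraspinatus replicate 1 (adjusted p from 0.051 to 0.068). Adamtsl3 was at 27.5, 30.5, 18 and 28.8 CPM in Achilles, 31, 27.1, 30.3 and 26.7 in Flexor, 46.5, 36.8, 46.2 and 57.2 in Supraspinatus and 35.3, 26.6, 24 and 30.2 in Patellar. The Supraspinatus libraries were above all others, by 0.83 ± 0.17 log2 units (adjusted p = 0.0015) against Achilles. Adamtsl2, which codes for a fibrillin-associated protein, had means from 2.95 CPM in Supraspinatus to 8.27 in Patellar.

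**Figure D2:**
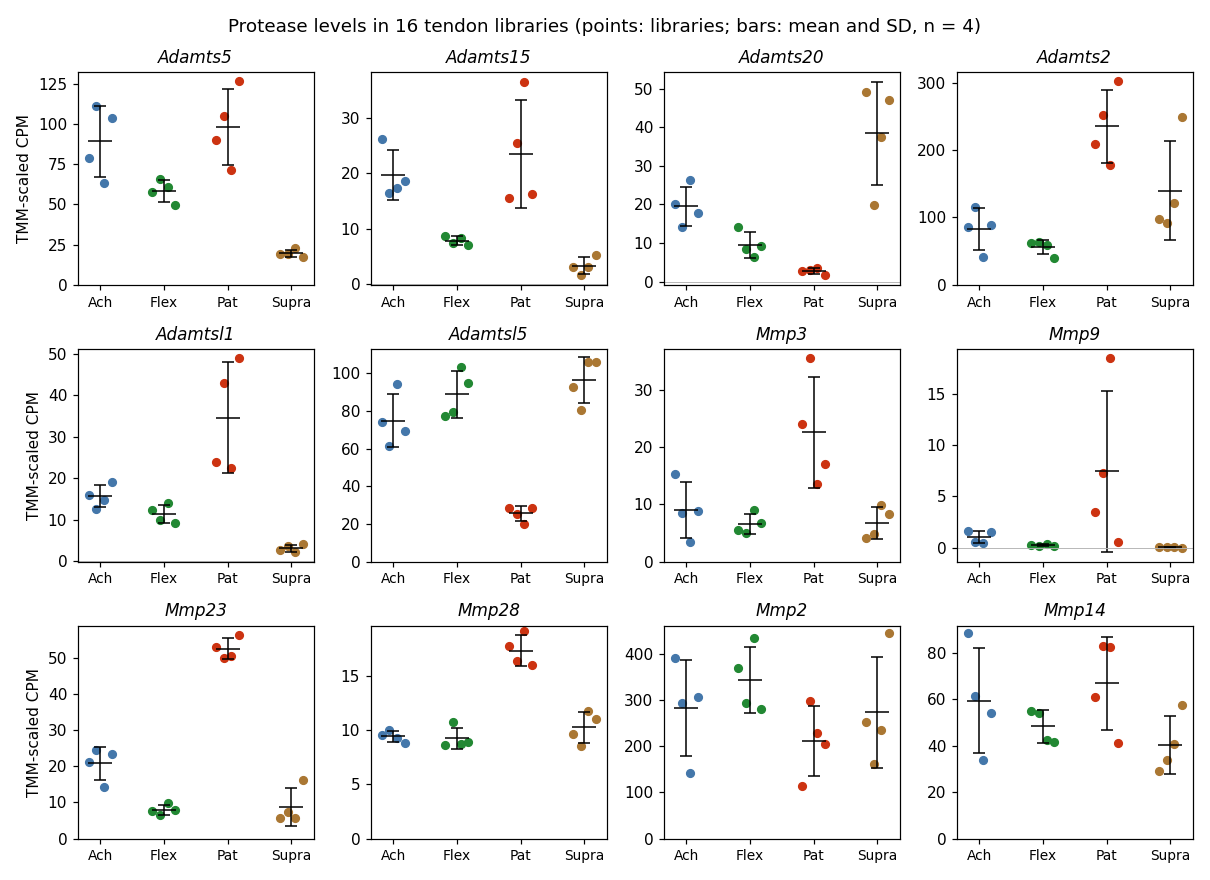
TMM-scaled CPM (vertical axes, a scale per gene) of 12 protease and protease-like genes in Achilles (Ach), Flexor (Flex), Patellar (Pat) and Supraspinatus (Supra); points are libraries and bars the mean and SD (n = 4). The Supraspinatus libraries lie lowest for Adamts5, Adamts15 and Adamtsl1, and the Patellar libraries highest for Mmp23 and Mmp28 and lowest for Adamts20 and Adamtsl5, whereas the tendons overlap for Mmp2 and Mmp14.

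Of the 13 expressed MMP genes, 8 differed over the 4 tendons, below the 75.7% of all genes with at least 1 CPM. Of those 8, 7 had their highest mean in Patellar. Of all genes with at least 1 CPM, whether they differed or not, 32.7% had theirs there. Mmp27 reached 1 CPM in Patellar alone, so the count of 7 only describes these members. Mmp3, Mmp9, Mmp23, Mmp27 and Mmp28 were higher in Patellar than in each other tendon. Mmp2, the MMP gene most abundant per length in every tendon, did not pass.

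Mmp3 and Mmp27 belong to a run of MMP genes on chromosome 9, in which Mmp13, Mmp12, Mmp3, Mmp10, Mmp8, Mmp27 and Mmp20 are the members in the count table, in this order, at gaps of 2.91 to 76.3 kb. Other MMP genes annotated there, such as Mmp1b, are not analysed here. Of these 7, Mmp3, Mmp12 and Mmp27 reached a mean of 1 CPM in a tendon. The 250 bases before the RefSeq start sites (GRCm38.p6) of Mmp3 and Mmp27, and the 219 of the same window that lie before the annotated gene for Mmp28 on chromosome 11, are printed 5′ to 3′ because these 3 genes were higher in Patellar. Capitals mark the AP-1 motif TGANTCA and the RUNX motif TGTGGT or its reverse complement ACCACA, searched on both strands.
Mmp3, chr9:7445572-7445821, plus strand: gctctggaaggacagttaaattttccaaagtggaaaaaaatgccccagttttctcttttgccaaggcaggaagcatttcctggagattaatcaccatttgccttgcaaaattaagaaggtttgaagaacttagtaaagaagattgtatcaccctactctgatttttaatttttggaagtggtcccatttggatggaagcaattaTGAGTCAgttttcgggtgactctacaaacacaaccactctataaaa
Mmp27, chr9:7571146-7571395, plus strand: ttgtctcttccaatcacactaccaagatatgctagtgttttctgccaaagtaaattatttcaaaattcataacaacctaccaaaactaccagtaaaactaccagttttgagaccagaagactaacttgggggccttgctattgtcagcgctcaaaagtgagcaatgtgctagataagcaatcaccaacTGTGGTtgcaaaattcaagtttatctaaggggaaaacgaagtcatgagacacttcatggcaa
Mmp28, chr11:83463072-83463290, minus strand: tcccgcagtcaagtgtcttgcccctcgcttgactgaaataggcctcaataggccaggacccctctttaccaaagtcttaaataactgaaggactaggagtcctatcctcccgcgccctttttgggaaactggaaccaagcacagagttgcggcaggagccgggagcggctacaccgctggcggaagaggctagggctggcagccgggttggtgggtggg
Mmp3 has 1 AP-1 match, whose first base lies 46 bases before the start, Mmp27 has 1 RUNX match, 62 bases before it, and Mmp28 has neither. Of the 33 members with a promoter in the table, 5 held the AP-1 letters, namely Mmp3, Mmp10, Mmp12, Mmp13 and Mmp20, all in the chromosome 9 run. Of the 25 expressed members among the 33, 2 held them, Mmp3 and Mmp12. Of all 32851 promoter windows, 6.75% held them, while a member was counted if any of its windows did. RUNX letters were found in 3 of the 25 expressed members, Mmp14, Mmp23 and Mmp27, and also in Mmp13, which was below the threshold. They were found in 14% of all windows. A match describes these letters and is not a measured binding site.

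Mmp3, stromelysin-1, which cleaves proteoglycans and activates other proenzymes (ENSMUSG00000043613, chromosome 9, 7445822 to 7455975), was at 15.4, 8.48, 3.48 and 8.78 CPM in Achilles, 5.62, 5.07, 8.95 and 6.78 in Flexor, 4.15, 4.75, 9.98 and 8.38 in Supraspinatus and 24.1, 35.6, 13.6 and 17 in Patellar. The Patellar libraries were above Flexor and Supraspinatus without overlap and overlapped Achilles, whose replicate 1 was at 15.4 CPM. Patellar minus Flexor was 1.77 ± 0.41 log2 units (adjusted p = 0.0019). Patellar minus Achilles was 1.32 ± 0.40 log2 units (adjusted p = 0.017), and it did not pass without Patellar replicate 2 (adjusted p = 0.054). With the muscle covariate both were lost, at 0.89 (adjusted p = 0.49) and 0.55 (adjusted p = 0.67). Mmp27, a little-studied relative, was at 0.53, 0.417, 0.25 and 0.766 CPM in Achilles, 0.28, 0.28, 0.624 and 0.159 in Flexor, 0, 0.0262, 0 and 0 in Supraspinatus and 1.4, 1.98, 3.65 and 1.88 in Patellar.

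Mmp27 was at 0 counts in 3 Supraspinatus libraries and at 2 in the other, which makes 2 counts in all against 388 in Patellar and 204 in Achilles. The ratio of Patellar to Supraspinatus was 352 (95% interval 97.6 to 2910, exact Poisson, counting error only). Mmp27 was also higher in Patellar than in Achilles, by 2.17 ± 0.53 log2 units (adjusted p = 0.0041), or 0.91 (adjusted p = 0.61) with the muscle covariate. Mmp12, the elastase of macrophages, passed over the 4 tendons (adjusted p = 0.033) and was at 0.75, 5.76, 0.3 and 0.593 CPM in Achilles, 0.184, 0.31, 0.0803 and 0.0529 in Flexor, 1.45, 0.877, 0.0122 and 0.205 in Supraspinatus and 0.919, 4.87, 0.312 and 3.88 in Patellar. Achilles replicate 2 and Patellar replicates 2 and 4 lay well above the other libraries, and its test over the 4 tendons did not pass without Flexor replicate 1, 3 or 4 or Patellar replicate 2 or 4 (adjusted p from 0.059 to 0.082).

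**Figure D3:**
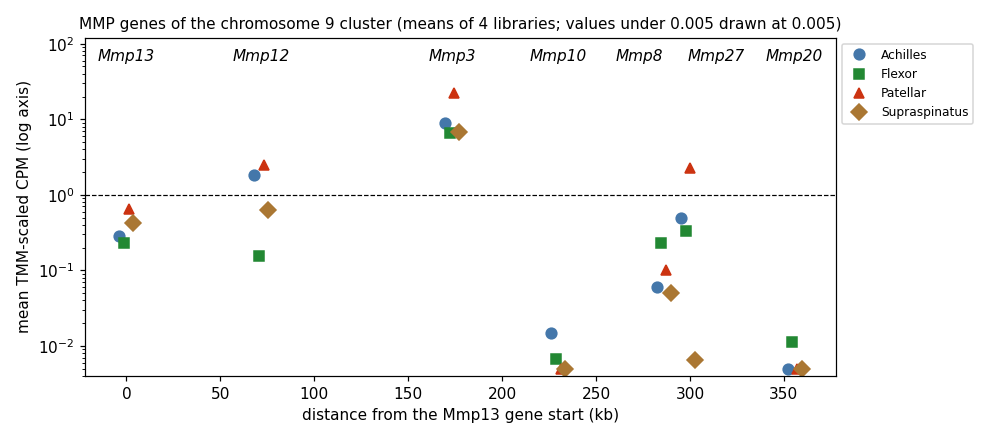
Mean TMM-scaled CPM of 4 libraries (log axis) of the 7 MMP genes of the chromosome 9 run, placed by the distance of each gene's start from that of Mmp13 (kb); the dashed line is the threshold of 1 CPM, and means under 0.005, zeros included, are drawn at 0.005. Mmp3, Mmp12 and Mmp27 cross the line, and for each of them Patellar is the highest point.

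Mmp23, an unusual membrane MMP whose propeptide lacks the cysteine switch of its relatives (ENSMUSG00000029061, chromosome 4, 155650655 to 155653384), was at 21.1, 24.4, 14.3 and 23.4 CPM in Achilles, 7.7, 6.49, 9.86 and 7.9 in Flexor, 5.53, 7.38, 5.56 and 16.3 in Supraspinatus and 53, 49.9, 50.4 and 56.2 in Patellar. The Patellar libraries were close together and above all others, and Achilles had the next highest mean. Supraspinatus overlapped Flexor and, through its replicate 4 at 16.3 CPM, also Achilles, whose replicate 3 was at 14.3. The difference was 2.71 ± 0.30 log2 units (adjusted p = 3e-06) in Patellar minus Flexor, which held with the muscle covariate at 2.49 (adjusted p = 0.016), and 1.33 ± 0.29 (adjusted p = 0.0018) in Patellar minus Achilles, which became 1.13 (adjusted p = 0.21). Mmp28, epilysin (ENSMUSG00000020682, chromosome 11, 83440768 to 83463071), was at 9.57, 9.98, 9.26 and 8.85 CPM in Achilles, 8.59, 10.7, 8.74 and 8.88 in Flexor, 9.65, 8.56, 11.8 and 11 in Supraspinatus and 17.8, 16.4, 19.1 and 16 in Patellar. Patellar alone stood above the rest, by 0.88 ± 0.13 log2 units (adjusted p = 9.3e-05) against Achilles and 0.91 ± 0.13 (adjusted p = 3.5e-05) against Flexor. With the muscle covariate the sizes were 0.86 (adjusted p = 0.052) and 0.88 (adjusted p = 0.058).

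Of the gelatinases, which digest denatured collagen, Mmp9 passed over the 4 tendons and Mmp2 did not. Mmp2, gelatinase A (ENSMUSG00000031740, chromosome 8, 92827291 to 92853420), was at 391, 293, 141 and 305 CPM in Achilles, 368, 294, 433 and 279 in Flexor, 252, 160.1, 234 and 444 in Supraspinatus and 113, 297, 228 and 204 in Patellar. The tendons overlapped, and the test over all 4 gave adjusted p = 0.31. Its share of the summed MMP level per kilobase was 68.4 ± 4.69% in Achilles, 79.2 ± 2.85% in Flexor, 74.6 ± 5.24% in Supraspinatus and 49.3 ± 8.05% in Patellar. Mmp9, gelatinase B, an enzyme of osteoclasts and neutrophils (ENSMUSG00000017737, chromosome 2, 164940780 to 164955850), was at 1.67, 0.546, 0.47 and 1.5 CPM in Achilles, 0.29, 0.2, 0.366 and 0.115 in Flexor, 0.0216, 0.0786, 0.0366 and 0 in Supraspinatus and 3.45, 7.29, 18.5 and 0.538 in Patellar.

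Patellar spanned a wide range for Mmp9 and overlapped Achilles through its replicate 4, Flexor lay below both, and Supraspinatus had 11 counts over its 4 libraries. Patellar minus Flexor was 4.93 ± 0.87 log2 units (adjusted p = 0.00022), or 1.67 (adjusted p = 0.48) with the muscle covariate, and Patellar minus Achilles 2.82 ± 0.78 (adjusted p = 0.0097), which turned to -0.08 (adjusted p = 0.98) with it. A list of 8 osteoclast markers took 0.0189% ± 0.00607 of counts in Achilles, 0.0106% ± 0.00254 in Flexor, 0.00547% ± 0.00166 in Supraspinatus and 0.0235% ± 0.0084 in Patellar (in Supraspinatus libraries from 0.00429% to 0.00792% and in those of Patellar from 0.0165% to 0.0357%), the same order of means as Mmp9. Within Patellar the order differed: replicate 3, with the highest Mmp9, had the lowest osteoclast share and the highest neutrophil share. These shares are of all counts, of which rRNA-like genes took 42% in replicate 3 and 13.2% to 33.9% in the other Patellar libraries. The low osteoclast share of replicate 3 is therefore in part a matter of this denominator. The most abundant osteoclast markers, Ctsk and Acp5, had means of 123 and 95.3 CPM in Patellar and 48.7 and 5.98 in Supraspinatus. They and Dcstamp had the order of tendons of Mmp9, whereas Calcr, Ocstamp, Oscar, Atp6v0d2 and Tnfrsf11a did not. Calcr ran the other way, at 0.425 CPM in Supraspinatus, 0.37 in Flexor, 0.194 in Achilles and 0 in Patellar, the only 0 of the 8. The 10 neutrophil markers took 6.12e-05% to 0.00198% of a library, with the highest mean again in Patellar. None of the 10 was at 0 in any tendon's mean, but few reached a mean of 1 CPM. Patellar had 3 such markers, Achilles and Flexor 1 each, and Supraspinatus 0. S100a8, S100a9, Elane, Ngp and Retnlg had their highest mean in Patellar, whereas Camp, Ltf, Mpo, Cxcr2 and Ly6g did not. The part of either cell type in the Mmp9 levels was not tested.

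Among the membrane-type MMPs, Mmp14, which activates the proenzyme of Mmp2 together with Timp2, was at 88.7, 61.4, 33.8 and 53.9 CPM in Achilles, 55, 54, 42.5 and 41.5 in Flexor, 29.1, 33.8, 40.5 and 57.4 in Supraspinatus and 60.9, 82.9, 82.7 and 41 in Patellar. The tendons overlapped, the test over all 4 gave adjusted p = 0.11, and the call in Supraspinatus minus Patellar (-0.73 ± 0.28 log2 units, adjusted p = 0.036) did not pass without Patellar replicate 2 or 3 or Supraspinatus replicate 1, 2 or 3 (adjusted p from 0.072 to 0.12), nor without the filter on low counts (adjusted p = 0.082), and turned to 0.46 (adjusted p = 0.68) with the muscle covariate. Mmp15 was at 20.4, 9.42, 23.2 and 14.3 CPM in Achilles, 10.7, 8.67, 4.28 and 11.4 in Flexor, 17.4, 12.5, 13.7 and 22.1 in Supraspinatus and 3.06, 9.19, 2.81 and 7.99 in Patellar. It was the 1 gene of the 13 that was called lower in Patellar than in Achilles, at -1.54 ± 0.41 log2 units (adjusted p = 0.0072), and it was higher in Supraspinatus than in Patellar (1.50 ± 0.41, adjusted p = 0.0054). With the covariate these were -2.22 (adjusted p = 0.14) and 2.35 (adjusted p = 0.19). Mmp16 was at 5.62, 7.18, 4.45 and 6.67 CPM in Achilles, 3.16, 3.57, 3.97 and 3.77 in Flexor, 7.88, 3.97, 5.79 and 11.9 in Supraspinatus and 7.53, 10.5, 8.61 and 10.3 in Patellar. Patellar was above Flexor, by 1.35 ± 0.27 log2 units (adjusted p = 0.00066), or 0.70 (adjusted p = 0.45) with the covariate. Mmp17, which is held by a lipid anchor, was at 7.69, 2.34, 7.64 and 3.6 CPM in Achilles, 4.4, 3.51, 3.19 and 2.15 in Flexor, 2.38, 3.06, 3.59 and 1.94 in Supraspinatus and 2.57, 3.87, 0.243 and 2.26 in Patellar. It did not pass over the 4 tendons (adjusted p = 0.18). Mmp11 (10.6 ± 2.31 CPM in Achilles, 10.8 ± 1.04 in Flexor, 9.16 ± 0.4 in Supraspinatus and 7.98 ± 4.2 in Patellar) and Mmp19 (5.16 ± 1.64 CPM in Achilles, 6.85 ± 1.44 in Flexor, 4.36 ± 2.1 in Supraspinatus and 6.51 ± 3.9 in Patellar) did not pass either. Exons of Mmp11, Mmp19 and Adamts7 overlap opposite-strand genes of higher count, namely Chchd10, Tmem198b and Tbc1d2b, so the counts of these 3 members are uncertain.

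The inhibitors Timp2, Timp3 and Timp4 differed over the 4 tendons, each with its own order, and Timp1 did not (adjusted p = 0.33). Timp2, which inhibits MMPs broadly and also helps Mmp14 activate Mmp2 (ENSMUSG00000017466, chromosome 11, 118301069 to 118355740), was at 364, 516, 230.3 and 442 CPM in Achilles, 226, 224, 197 and 195 in Flexor, 713, 786, 715 and 1166 in Supraspinatus and 994, 1055, 996 and 1727 in Patellar. Patellar and Supraspinatus overlapped and lay above all Achilles and Flexor libraries, and Flexor was below Achilles. Patellar minus Flexor was 2.50 ± 0.26 log2 units (adjusted p = 1.6e-06) and Supraspinatus minus Flexor 2.01 ± 0.25 (adjusted p = 2.1e-05). Both held with the muscle covariate, at 2.43 (adjusted p = 0.011) and 2.02 (adjusted p = 4.1e-05). Patellar minus Achilles, 1.62 ± 0.25 log2 units, became 1.56 (adjusted p = 0.061). Flexor minus Achilles (-0.88 ± 0.25 log2 units, adjusted p = 0.022) did not pass without Achilles replicate 2 or 4 or Flexor replicate 2, 3 or 4 (adjusted p from 0.051 to 0.067).

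Timp3, which is bound to the matrix and also inhibits Adamts4 and Adamts5 (ENSMUSG00000020044, chromosome 10, 86300372 to 86349506), was at 734, 1154, 673 and 1036 CPM in Achilles, 583, 551, 598 and 786 in Flexor, 952, 635, 857 and 735 in Supraspinatus and 174, 472, 419 and 307 in Patellar. Patellar lay below all other libraries, in the opposite direction to Timp2. Patellar minus Achilles was -1.39 ± 0.27 log2 units (adjusted p = 0.0008) and Supraspinatus minus Patellar 1.21 ± 0.27 (adjusted p = 0.0013), and these were -3.14 (adjusted p = 0.00064) and 3.45 (adjusted p = 0.0014) with the muscle covariate. Timp3 shares exon bases with the opposite-strand gene Syn3, which was at 1.42 CPM on average against 679 for Timp3 (both unscaled, over 16 libraries).

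Timp4, the family member with the most restricted expression (ENSMUSG00000030317, chromosome 6, 115241892 to 115252205), was at 199, 192, 208 and 285 CPM in Achilles, 61, 80.4, 64.1 and 59.1 in Flexor, 35.1, 72.2, 42.2 and 18.2 in Supraspinatus and 80.5, 156, 152 and 127 in Patellar. Achilles was above all other libraries, Patellar next, and Flexor and Supraspinatus overlapped. The difference was -1.74 ± 0.31 log2 units (adjusted p = 0.0015) in Flexor minus Achilles and -2.40 ± 0.32 (adjusted p = 4.5e-05) in Supraspinatus minus Achilles. Patellar minus Achilles did not pass (-0.78 ± 0.31 log2 units, adjusted p = 0.057), although the libraries did not overlap. Patellar minus Flexor (0.96 ± 0.31 log2 units, adjusted p = 0.016) turned to -0.10 (adjusted p = 0.94) with the muscle covariate. A list of 10 adipocyte markers took 0.746% ± 0.27 of counts in Achilles, 0.0817% ± 0.0181 in Flexor, 0.0756% ± 0.0617 in Supraspinatus and 1.34% ± 0.694 in Patellar, with all 10 above 1 CPM in each tendon's mean. Fat genes were thus also more abundant in Achilles and Patellar, where Timp4 was higher, and their part in its level was not tested. Timp1, which is induced by inflammation and injury, was at 47.6, 41.8, 19.8 and 21.7 CPM in Achilles, 14.5, 23.4, 33 and 33.4 in Flexor, 20.5, 27.2, 78.2 and 34.3 in Supraspinatus and 137, 33.6, 17.8 and 32.4 in Patellar. Patellar replicate 1 had the highest value and Supraspinatus replicate 3 the next, and no contrast passed.

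**Figure D4:**
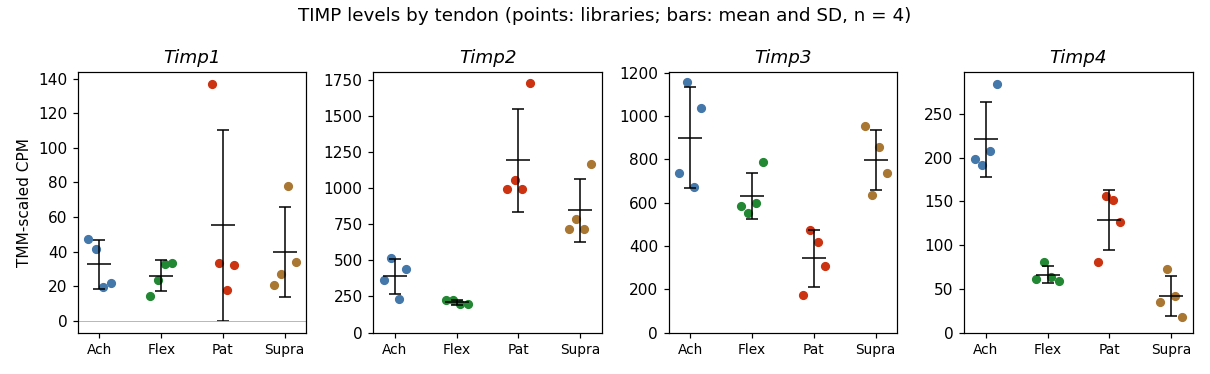
TMM-scaled CPM (vertical axes, a scale per gene) of the 4 TIMP genes by tendon, Achilles (Ach), Flexor (Flex), Patellar (Pat) and Supraspinatus (Supra); points are libraries and bars the mean and SD (n = 4). Timp2 is high in Patellar and Supraspinatus, Timp3 is low in Patellar, Timp4 is high in Achilles, and for Timp1 Patellar replicate 1 lies at 137 CPM above the other Patellar libraries.

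The summed level of the 4 TIMP genes per kilobase of exon was 271, 354, 199 and 313 CPM per kb in Achilles, 156, 165, 172 and 194 in Flexor, 329, 322, 384 and 431 in Supraspinatus and 444, 393, 353 and 539 in Patellar. All Flexor libraries were below all others. The summed level of the 13 expressed MMP genes was 164, 124, 68.3 and 127 CPM per kb in Achilles, 136, 113, 155 and 108 in Flexor, 95.7, 70.0, 94.9 and 166 in Supraspinatus and 89.7, 162, 129 and 114 in Patellar, with overlap between all tendons. The ratio of the TIMP to the MMP sum was 2.47 ± 0.583 (SD, n = 4) in Achilles, 1.38 ± 0.319 in Flexor, 3.67 ± 0.862 in Supraspinatus and 3.71 ± 1.3 in Patellar. Its Flexor values, 1.15, 1.46, 1.11 and 1.79, were below all Patellar and Supraspinatus values and overlapped those of Achilles. Without Mmp2 the ratio was 14.4 ± 1.41 in Supraspinatus, above every library of the other tendons, where the means lay between 6.58 and 7.84. These sums of transcripts were not tested.

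**Figure D5:**
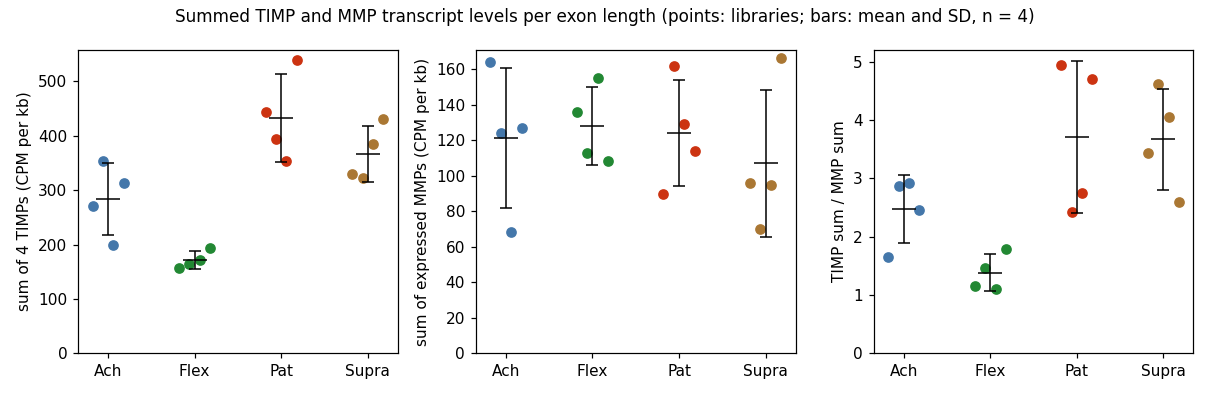
Summed TIMP level (left) and summed level of the expressed MMP genes (middle), both in CPM per kb of exon, and their ratio (right), by tendon, Achilles (Ach), Flexor (Flex), Patellar (Pat) and Supraspinatus (Supra); points are libraries and bars the mean and SD (n = 4). The TIMP sums of Flexor, 156 to 194, lie below all others, and the MMP sums overlap.

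Related genes were read from 5 lists of activators, other inhibitors and partners, substrates, related metalloproteinases and regulators. The pathway genes named are the first 3 of each list by adjusted p over the 4 tendons, as far as that test passed. As background, 64.9% of all genes tested and 75.7% of those with at least 1 CPM differed over the 4 tendons, and the lists are a description beside these shares. Of the protease activators, 2 of 7 tested genes differed over the 4 tendons. Of these 7, 0 were higher and 4 lower in Patellar than in Flexor, and 2 were higher and 0 lower in Flexor than in Achilles (all genes: 24.2% and 26.2%, and 6.5% and 9.72%). Furin, the convertase that cuts ADAMTS and membrane MMP proenzymes, was at 21 ± 1.82 CPM in Achilles, 30.2 ± 4.11 in Flexor, 22.7 ± 0.729 in Supraspinatus and 18.3 ± 1.29 in Patellar. Plat, tissue plasminogen activator, was at 47.7 ± 14.8 CPM in Achilles, 115 ± 4.45 in Flexor, 45.6 ± 6.18 in Supraspinatus and 44.5 ± 21.5 in Patellar. Both had their highest mean in Flexor.

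Of the other inhibitors, clearance receptors and surface partners, 10 of 13 differed over the 4 tendons, with 2 higher and 6 lower in Patellar minus Flexor and 1 higher and 6 lower in Supraspinatus minus Flexor (all genes in the latter: 14.7% and 12.4%). The serine protease inhibitor Serpine2 was at 796 ± 191 CPM in Achilles, 900.0 ± 197 in Flexor, 383 ± 78.5 in Supraspinatus and 237 ± 42.5 in Patellar. Spock2, a testican proteoglycan, was at 23.6 ± 8.08 CPM in Achilles, 24.2 ± 7.37 in Flexor, 7.84 ± 1.82 in Supraspinatus and 43.6 ± 8.36 in Patellar. A2m, a broad protease trap, was highest in Flexor at 1.63 ± 0.658 CPM and had 0 counts in Supraspinatus.

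Of the matrix substrates, 12 of 16 differed, with 6 higher and 3 lower in Patellar minus Achilles and 3 higher and 5 lower in Supraspinatus minus Patellar (all genes: 17.4% and 21.1%, and 26.4% and 26.8%). Eln, elastin, was at 237 ± 118 CPM in Achilles, 252 ± 104 in Flexor, 29.6 ± 7.21 in Supraspinatus and 100.4 ± 64.9 in Patellar. Fbn1, the fibrillin that ADAMTS-like proteins bind, was at 115 ± 50.2 CPM in Achilles, 227 ± 57.6 in Flexor, 429.8 ± 84.6 in Supraspinatus and 249 ± 53.6 in Patellar. Elastin was lowest and fibrillin highest in Supraspinatus. The third by adjusted p, the proteoglycan gene Ncan, stayed under 1 CPM in every tendon.

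Of the related metalloproteinases, 10 of 12 differed, with 5 higher and 5 lower in Patellar minus Flexor (all genes: 24.2% and 26.2%). Bmp1, which removes the carboxy-terminal propeptide of procollagen, was at 43 ± 8.16 CPM in Achilles, 29.7 ± 3.6 in Flexor, 102 ± 45 in Supraspinatus and 199 ± 55.1 in Patellar, the order of tendons also seen for Adamts2 and Timp2. Adam12 was at 1.51 ± 0.388 CPM in Achilles, 0.645 ± 0.121 in Flexor, 3.2 ± 1.63 in Supraspinatus and 15.6 ± 4.11 in Patellar, in the same order as well. Adam9 was at 112 ± 5.35 CPM in Achilles, 112 ± 24.2 in Flexor, 186 ± 6.23 in Supraspinatus and 73.4 ± 13 in Patellar, highest in Supraspinatus. Of the transcription factors and cytokines, 8 of 12 differed, with 4 higher and 2 lower in Patellar minus Flexor. The AP-1 subunit gene Jund was at 11.3 ± 2.58 CPM in Achilles, 7.2 ± 0.563 in Flexor, 35.9 ± 7.68 in Supraspinatus and 58.5 ± 15.3 in Patellar. Jun, another AP-1 subunit gene, was at 83.4 ± 5.05 CPM in Achilles, 74.5 ± 23.6 in Flexor, 138 ± 15.2 in Supraspinatus and 105 ± 9.67 in Patellar. Runx2, a factor of bone and hypertrophic cartilage, was at 3.24 ± 0.756 CPM in Achilles, 0.765 ± 0.246 in Flexor, 1.33 ± 0.415 in Supraspinatus and 3.51 ± 2.15 in Patellar.

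The authors' deposited table of their own comparisons lists 34 of the 39 expressed members. At a false discovery rate under 0.05, the number it calls and, of those, the number also called here were 10 and 9 in Flexor minus Achilles, 16 and 13 in Patellar minus Achilles, 15 and 14 in Supraspinatus minus Achilles, 21 and 21 in Patellar minus Flexor, 14 and 12 in Supraspinatus minus Flexor and 24 and 21 in Supraspinatus minus Patellar. In each of the 6 comparisons, every member called in both had the same tendon higher.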

How the data were processed

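RNA from 4 mouse tendons was sequenced in 16 libraries. Per the labels, RNA was purified with a column kit for small amounts. The submitters' processing notes name HISAT2, FastQC, edgeR and the build mm10, with no further detail. The counter, its strand setting, the annotation and tool releases were not given in the sources used here. The authors deposited whole-number counts per gene, without normalization, and a table of their own comparisons with log2 fold changes, p-values and false discovery rates, in which the first-named tendon stands first.

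From the deposited counts, edgeR 4.0.16 (R 4.3.3) removed low genes with filterByExpr by tendon, scaled by TMM and fitted a quasi-likelihood model with tendon as the 4-level factor over all 16 libraries. The 6 contrasts and the test over 4 tendons were adjusted over the 23754 genes kept, at a threshold of 0.05. CPM per kb divides CPM by the length of the merged exons of GENCODE vM21, which also gave the coordinates, for all 48 members. Promoters came from RefSeq (GRCm38.p6), where 33 members matched. Intervals on counts cover counting error only.

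Members and lists were chosen with earlier results of these data known. Values in every library are given for up to 4 expressed members of each subfamily by adjusted p over the 4 tendons, and the rest by means. Library numbers are shared between tendons, but of 24 pairs of same-numbered sets 2 had deviations correlated over 0.1, so the numbers were not taken to pair the libraries. Both of these pairs joined Flexor and Supraspinatus, at 0.15 for replicate 2 and 0.255 for replicate 4. For replicates 1 and 3 of these tendons the correlations were 0.0793 and 0.00181, and a pairing of these tendons alone was not tested. No 2 libraries of the same tendon were alike within sampling noise. Alternatives changed the scaling factors, the filter, the model (DESeq2 1.42.0, limma-voom 3.58.1), the libraries and the covariates, among them the mean log2 CPM of 20 skeletal muscle genes.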

Additional observations from a re-analysis of the deposited data

Results flagged for a closer look

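In each group of 4 libraries the value farthest from the others was compared with the group's range, a rule by which chance marks about 1 in 20 groups. Of the 156 groups formed by the 39 expressed members and 4 tendons, 10 were marked, each for 1 library that stood apart. Upward, Adamts8 in Flexor replicate 1 was at 18.7 CPM, against 1.44 to 2.58 in the others, Adamts9 in Patellar replicate 2 at 21.3 against 11.9 to 12.9, and Mmp12 in Achilles replicate 2 at 5.76 against 0.3 to 0.75. Timp1 in Patellar replicate 1 was at 137 CPM, against 17.8 to 33.6. Timp2 was at 1727 CPM in Patellar replicate 4, against 994 to 1055, and at 1166 in Supraspinatus replicate 4, against 713 to 786. Timp4 in Achilles replicate 4 was at 285 CPM, against 192 to 208. Mmp28 in Flexor replicate 2 was at 10.7 CPM, against 8.59 to 8.88, and Mmp27 in Supraspinatus replicate 2 at 0.0262, against 0. Downward, Adamts10 in Flexor replicate 2 was at 54.7 CPM, against 62.5 to 63.3.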

How the results depend on the processing

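Of the 97 member comparisons called, 46 passed in the same direction under every setting in which they were tested, and 53 did when leaving out single libraries is not counted. The muscle covariate accounted for most of the rest: with it 56 comparisons were unchanged in call, 34 lost their call and 7 reversed, none of the reversed ones past the threshold. The reversed values were -0.08 for Mmp9 in Patellar minus Achilles, -0.10 for Timp4 and -0.17 for Adamts12 in Patellar minus Flexor, and 0.05 for Adamtsl2, 0.46 for Mmp14, 0.12 for Adamts12 and 0.20 for Adamts10 in Supraspinatus minus Patellar. With it the count of members higher was 1 in Patellar minus Achilles and 3 in Patellar minus Flexor, the count lower was 5 in Supraspinatus minus Patellar, and 0 were distinct and higher in Patellar and 1 in Supraspinatus. Since tendon and muscle content vary together, the fit with the covariate has wide errors. Its counts are given without the share of all genes called, and only describe the members.

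Members higher in Flexor minus Achilles numbered 2 with DESeq2, limma-voom, the 8 libraries of the pair alone or no Patellar libraries, and those lower numbered 13 with the 8 libraries. With limma-voom 8 were lower in Patellar minus Achilles. Those distinct and lower in Flexor numbered 3 with DESeq2 and 2 with a mean CPM of at least 5, with limma-voom, with the 8 libraries or with the replicate block, and DESeq2 gave 10 distinct and higher in Patellar.

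Leaving out 1 library gave 0 to 2 members higher and 4 to 10 lower in Flexor minus Achilles, 8 to 12 and 5 to 8 in Patellar minus Achilles, 3 to 5 and 9 to 13 in Supraspinatus minus Achilles, 17 to 19 and 5 in Patellar minus Flexor, 6 to 7 and 5 to 8 in Supraspinatus minus Flexor, and 6 to 8 and 14 to 20 in Supraspinatus minus Patellar. Between 25 and 30 differed over the 4 tendons. Distinct members numbered 0 to 1 higher and 0 to 2 lower in Flexor, 6 to 12 and 4 to 5 in Patellar, and 1 to 2 and 5 to 7 in Supraspinatus.

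With the library number as a block, 92 comparisons kept their call and 5 lost it, 27 members differed over the 4 tendons, and 8 were higher in Patellar minus Achilles. The numbers were not shown to pair the libraries: correlations of same-numbered deviations ran from -0.135 to 0.255, and 5 of 16 libraries correlated best with their own number. The smaller totals of the Patellar libraries limit the precision of members near 1 CPM there.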
